A study of Mus musculus with 15 samples.

Results

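The genes described here move zinc, iron and copper into, out of and within cells, or hold these metals inside them. They were taken by symbol: all numbered members of the Slc39a family (14 genes) and the Slc30a family (10 genes), and the iron, copper and metallothionein genes Slc11a1, Slc11a2, Slc40a1, Slc31a1, Tfrc, Trf, Fth1, Ftl1, Cp, Heph, Mt1, Mt2, Atp7a and Atp7b. The rule found 38 genes among the 23244 entries of the expression table. Of these, 34 passed the filter of at least 1 CPM (the authors' depth-scaled read count) in at least 3 libraries, as did 13845 entries in all, and the other members, Slc39a2, Slc39a4, Slc39a5 and Slc30a8, are given by their values alone.

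Optic tissue was grown from mouse embryonic stem cells of the line EB5 Rx::GFP+/-, a single reporter line in which GFP marks activity of the eye field gene Rx, by SFEBq culture, in which dissociated cells reaggregate and form an eye-like epithelium in Matrigel. Before aggregation the cells were kept with LIF, blasticidin, 3 μM CHIR99201 and 1 μM of a MEK inhibitor, which the labels call PD184352 and the methods call by another name. Day 10 Rx::GFP+ epithelium, a mixed tissue cut out with forceps, was the starting point. Explants were then kept until Day 12 or Day 15 either as +Wnt, given CHIR99201, which blocks GSK3, first at 3 μM (24 h) and afterwards at 1 μM, or as +Fgf, with 5 ng/ml human bFgf and 10% FBS. FBS is listed for the +Fgf medium only, so effects of Fgf and of serum cannot be told apart, and no unstimulated Day 12 or Day 15 group was analysed. Each of the 5 groups held 3 biological replicates.

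Recovered reads per library ranged from 12556998 to 16175450, so that 1 read was worth between 0.0620 and 0.0764 CPM. The tissue identity given by the labels was checked against markers. The summed level of pigment epithelium markers at Day 15 was 7082 to 9082 CPM in +Wnt and 294 to 383 CPM in +Fgf, although Rpe65, a marker of mature pigment epithelium, was at 0 in all +Wnt libraries of that day. The summed level of neural retina progenitor markers was 2985 to 3171 CPM in +Fgf and 643 to 691 CPM in +Wnt. In bulk tissue, fewer cells of a type and less RNA per cell cannot be told apart.

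A single library stood apart in a way that touches several of the genes. In Day 15 +Fgf replicate 2 the summed level of liver and visceral endoderm markers was 47.1 CPM, against 0.0737 and 0.707 CPM in replicates 1 and 3. Apob reached 19.0 CPM there, Apoa1 12.0 CPM, Afp 8.65 CPM and Hnf4a 5.29 CPM, whereas Alb was at 0. Day 12 +Wnt replicate 1 held 7.55 CPM, against 0.348 and 1.26 CPM in its group. Some results that rest on Day 15 +Fgf are therefore also given without replicate 2.

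Zinc and iron cross membranes as ions on dedicated carriers. Slc39a (ZIP) proteins bring zinc into the cytoplasm from outside or from organelles, and Slc30a (ZnT) proteins carry it the other way. Iron bound to transferrin (Trf) enters through the transferrin receptor (Tfrc), leaves endosomes through Slc11a2, is stored in ferritin (Fth1 and Ftl1 subunits), and leaves the cell through ferroportin (Slc40a1) with the help of the copper-dependent ferroxidases ceruloplasmin (Cp) and hephaestin (Heph). Copper enters through Slc31a1 and is pumped by Atp7a and Atp7b. In the eye, the pigment epithelium supplies metals to the neural retina and holds zinc, iron and copper, and melanin synthesis uses the copper enzyme tyrosinase.

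Known control elements of these genes can be read from their sequence. Metallothionein genes are switched on by the zinc-sensing factor Mtf1 at metal response elements. The promoters of the neighbouring genes Mt1 and Mt2 are shown because both genes fell and rose by several fold, from 250 bases before to 30 bases after the RefSeq start (GRCm38.p6, plus strand, Mt1 at chr8:94178839-94179118 and Mt2 at chr8:94172368-94172647). Capitals mark the core letters TGCACNC or TGCGCNC on either strand.
Mt1: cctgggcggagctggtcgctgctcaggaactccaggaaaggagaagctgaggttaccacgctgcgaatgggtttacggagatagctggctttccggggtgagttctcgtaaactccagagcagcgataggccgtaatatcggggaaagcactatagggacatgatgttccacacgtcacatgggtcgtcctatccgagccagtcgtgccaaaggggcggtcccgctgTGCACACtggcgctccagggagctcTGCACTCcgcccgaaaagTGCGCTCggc
Mt2: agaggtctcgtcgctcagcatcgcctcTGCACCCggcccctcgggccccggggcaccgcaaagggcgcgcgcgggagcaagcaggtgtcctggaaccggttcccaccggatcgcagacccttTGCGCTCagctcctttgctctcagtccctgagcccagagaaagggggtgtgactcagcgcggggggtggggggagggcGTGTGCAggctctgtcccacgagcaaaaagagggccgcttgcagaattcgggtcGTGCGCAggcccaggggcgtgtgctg
Mt1 held 3 such cores and Mt2 held 4, and no core overlapped another. A promoter window was given for 30 of the 38 members, and 16 of these held at least 1 core. Counted by window, 17 of the 38 windows of these members did (44.7%). Of all 32851 RefSeq windows of 300 bases, 25.7% held at least 1 core and 0.517% held 4 or more.

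Messenger RNAs for iron proteins carry iron-responsive elements, hairpins bound by iron regulatory proteins. An element in the 5′ UTR is known to control translation and those in the 3′ UTR of Tfrc to control the stability of its mRNA. Matches were searched in the UTRs of the members as C, 5 bases, CAGTGN and 5 bases that pair with the first 5 (G with T allowed). They are shown because the 4 genes that hold them are the receptor, store and exporter whose levels are compared below. Sequences are from GRCm38 with the GENCODE annotation, 29 bases each, on the strand of the gene, with CAGTG in capitals.
Fth1, 5′ UTR, chr19:9982732-9982760: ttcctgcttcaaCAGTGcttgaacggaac
Ftl1, 5′ UTR, chr7:45459779-45459807, minus strand: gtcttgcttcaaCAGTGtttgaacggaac
Slc40a1, 5′ UTR, chr1:45925465-45925493, minus strand: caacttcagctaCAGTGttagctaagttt
Tfrc, 3′ UTR, chr16:32631219-32631247: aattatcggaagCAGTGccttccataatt
Tfrc, 3′ UTR, chr16:32631598-32631626: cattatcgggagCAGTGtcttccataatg
Tfrc, 3′ UTR, chr16:32631663-32631691: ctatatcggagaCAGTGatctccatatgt
Tfrc, 3′ UTR, chr16:32631710-32631738: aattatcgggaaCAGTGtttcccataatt
No other member held a match, and 155 of 21767 protein-coding genes did (0.712%). The pattern requires all 5 pairs and allows no bulge or unpaired base among them. Elements of another shape are missed, so the other members cannot be said to hold none. Such matches describe the letters only, and protein binding was not measured.

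Positions of 6 members described below are given on GRCm38 (GENCODE). Slc11a1 lies at chr1:74375195-74386062 and Cp at chr3:19957054-20009145, both on the plus strand. Tfrc lies at chr16:32608920-32632794 (plus strand), Trf at chr9:103204001-103230444 (minus strand), Slc30a10 at chr1:185454848-185468762 (plus strand) and Slc39a12 at chr2:14388316-14494977 (plus strand). Exons of 24 members overlap no exon of another gene. Exons of Cp, Heph, Mt2 and Slc30a10 overlap an exon on the opposite strand (Hps3, Hsf3, Gm45774 and Gm2061). Those of Trf overlap Gm20425 on the same strand, and those of Ftl1 overlap Gm22133 and Gm10252. Also on the opposite strand, exons of Slc39a9 overlap Erh, those of Slc39a13 overlap Psmc3, and those of Slc11a2, Slc30a1, Slc30a4 and Slc30a7 overlap other genes. On the same strand, exons of Slc39a2 overlap Mettl17 and those of Slc39a7 overlap Gm20427. Some reads of all these members may belong to the partner.

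At Day 10 the level per kilobase of annotated exon was highest for Ftl1, at 974 CPM per kb, followed by Mt2 at 112 and Fth1 at 93.0 CPM per kb. Mt1, the Golgi and ER zinc transporter gene Slc39a7, and Tfrc lay between 64.6 and 68.0 CPM per kb. The order depends on the length used, which joins all annotated exons of a gene (588 bases for Mt2, 1246 for Mt1 and 3469 for Fth1). Before division the means at Day 10 were 66.0 CPM for Mt2, 84.7 CPM for Mt1 and 323 CPM for Fth1. An F test of limma over the 5 groups was past an adjusted p of 0.05 for 33 of the 34 tested members, all but Slc30a6, against 94.2% of all genes tested.

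In the comparison of +Fgf with +Wnt, 20 of 34 members differed at Day 12, against 51.5% of all genes tested, 6 higher and 14 lower in +Fgf. At Day 15, 28 of 34 differed, against 68.7% of all genes tested, 8 higher and 20 lower in +Fgf. For the lower direction the share over all genes was 25.2% at Day 12 and 30.6% at Day 15, and for the higher direction 26.3% and 38%. The median difference of the members at Day 15 was -0.31 on the log2 scale, against 0.05 over all genes tested. A difference of at least 1 on that scale was called for 6 members at Day 12 and 11 members at Day 15, against 12.7% and 19.7% of all genes. The replicates of the media did not overlap for 22 members at Day 12 and 28 at Day 15, against 60.4% and 73.1% of all genes. Without Day 15 +Fgf replicate 2, 26 members differed at Day 15 and 8954 of the 13845 genes tested did, and with RNA integrity as a covariate 19 members and 6362 genes did. The pigment epithelium and neural retina markers given above moved with the same groups, and their part in these differences was not tested.

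**Figure D1:**
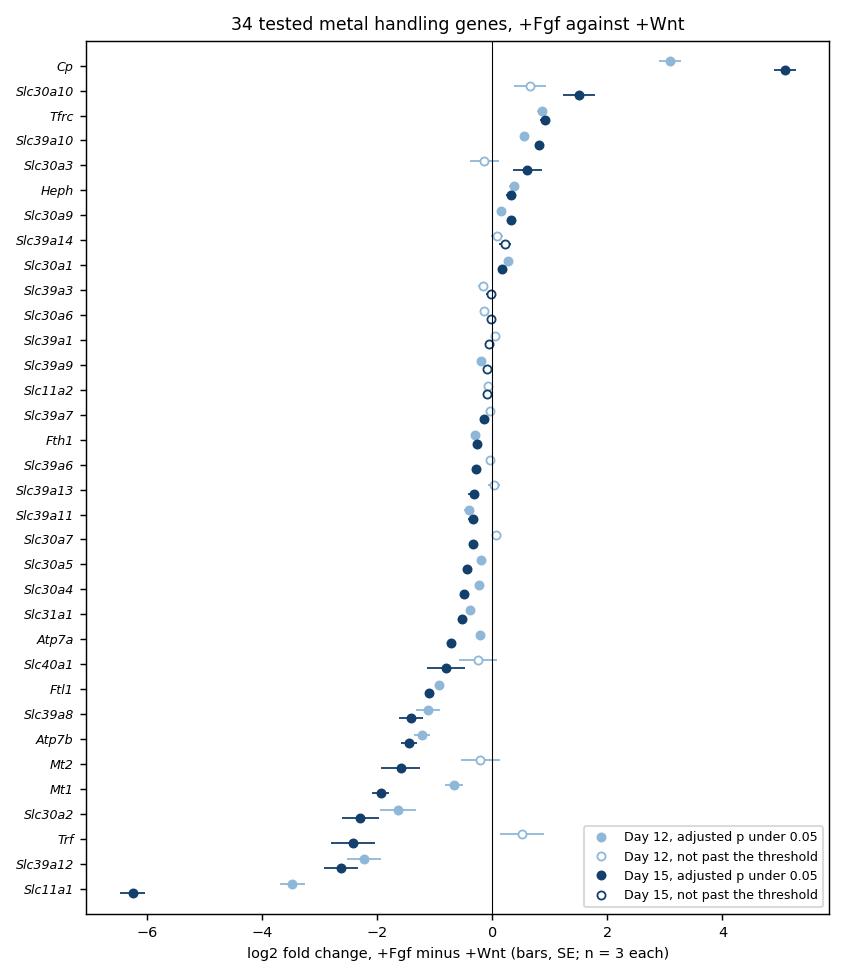
Log2 fold change of the 34 tested members, +Fgf minus +Wnt (horizontal axis, bars are SE), at Day 12 (light) and Day 15 (dark), with filled points past an adjusted p of 0.05. Cp lies farthest to the right at 3.09 and 5.08, and Slc11a1 farthest to the left at -3.48 and -6.25.

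The transferrin receptor gene Tfrc was lower in +Wnt than in any other group. Its levels were 383, 433 and 382 CPM at Day 10, 352, 392 and 293 CPM in Day 12 +Fgf, and 445, 429.8 and 436 CPM in Day 15 +Fgf. They were 203, 179 and 184 CPM in Day 12 +Wnt and 203, 245 and 251 CPM in Day 15 +Wnt, so no +Wnt library reached the lowest library of the other groups. Against Day 10, Tfrc fell 2.12-fold in Day 12 +Wnt (log2 difference -1.08 ± 0.09 SE, adjusted p = 5.62e-08), and its difference in Day 12 +Fgf was -0.22 (adjusted p = 0.0566), or -0.44 and past the threshold with RNA integrity as a covariate. Tfrc was 1.82-fold higher in +Fgf than in +Wnt at Day 12 and 1.88-fold higher at Day 15 (adjusted p = 1.73e-07).

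Trf, which encodes the iron carrier transferrin, was close to the limit of detection except in Day 15 +Wnt. That group held 2.42, 3.50 and 3.86 CPM (39, 47 and 55 reads). Day 10 libraries held 0.136, 0.134 and 0.153 CPM, those of Day 12 +Fgf 0.190, 0.127 and 0.256 CPM, and those of Day 12 +Wnt 0, 0.139 and 0 CPM. Trf passed the filter through the 3 Day 15 +Wnt libraries and 1 of Day 15 +Fgf, so a difference from the other groups was built into its being tested. From Day 12 to Day 15 in +Wnt, reads of Trf went from 2 to 141 over the group, a ratio of 73.1 with an exact 95% counting interval of 19.9 to 609, and limma called the rise (adjusted p = 8.95e-07). In Day 15 +Fgf the libraries held 0.0737, 1.17 and 0.212 CPM, and the highest was replicate 2, the library with liver and visceral endoderm markers, whose part in this value was not tested. At Day 15 the log2 difference of Trf, +Fgf minus +Wnt, was -2.42 ± 0.39 (SE, adjusted p = 3.25e-05), and without that library -3.00. The summed level of choroid plexus markers was also highest in Day 15 +Wnt, at 1473 to 2000 CPM, against 427 to 446 CPM in Day 12 +Wnt and 178 to 322 CPM in Day 15 +Fgf. None of the 9 genes of that list was at 0 in Day 15 +Wnt, and its leading gene there was Ttr with a mean of 929 CPM. The summed level of pigment epithelium markers rose in the same step. It was 2404 to 2958 CPM in Day 12 +Wnt and 7082 to 9082 CPM in Day 15 +Wnt. The part of either tissue in the Trf level was not tested.

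Slc11a1, which encodes a divalent metal transporter best known from the phagosomes of macrophages, separated the stimulations most widely. It held 5.59, 3.94 and 3.90 CPM at Day 10. In +Fgf it held 1.01, 1.40 and 1.21 CPM at Day 12 and 0.369, 0.412 and 0.141 CPM at Day 15 (5, 6 and 2 reads). In +Wnt it held 20.4, 15.5 and 14.0 CPM at Day 12 and 55.4, 35.6 and 46.2 CPM at Day 15. The 5 groups did not overlap. Relative to the same Day 10 libraries it fell by 1.65 ± 0.22 (SE) on the log2 scale in Day 12 +Fgf (adjusted p = 8.75e-06) and rose by 1.83 ± 0.22 in Day 12 +Wnt (adjusted p = 2.30e-06). At Day 15 the ratio of the group means, +Wnt over +Fgf, was 149, and the fitted log2 difference, +Fgf minus +Wnt, was -6.25 (adjusted p = 4.00e-13). The difference on the log2(CPM + 0.3) scale understates the ratio because the +Fgf values lie near the pseudocount.

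The macrophage and microglia markers were read beside Slc11a1. Their summed level was 20.9 to 24.2 CPM in Day 15 +Wnt and 0.919 to 4.01 CPM in the other groups. Csf1r alone gave 20.1 CPM of the Day 15 +Wnt level, and 7 of the 13 marker genes in the table (Ptprc, Tyrobp, Fcer1g, C1qb, C1qc, Cx3cr1 and Emr1) were at 0 in all 3 libraries. The sum was 1.59 to 2.83 CPM in Day 12 +Wnt and 2.93 to 4.01 CPM at Day 10. In these groups 11 and 10 of the 13 genes held at most 3 reads in any library, so the sums are close to the limit of detection. The part of such cells in the Slc11a1 level was not tested.

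Slc11a2, the endosomal iron transporter gene, differed little between the stimulations and was lower at each later day. Its group means were 57.7 ± 3.38 CPM at Day 10, 44.9 ± 0.972 and 35.7 ± 1.67 CPM in Day 12 and Day 15 +Fgf, and 47.3 ± 2.11 and 37.9 ± 2.18 CPM in Day 12 and Day 15 +Wnt (SD, n = 3). All 4 decreases were past the threshold, that from Day 12 to Day 15 in +Fgf not so with RNA integrity as a covariate (-0.27, adjusted p = 0.134), and the Day 15 difference, +Fgf minus +Wnt, was -0.09 ± 0.06 (SE, adjusted p = 0.217).

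The ferritin subunit genes were higher in +Wnt. Ftl1, the light subunit, held 1310.5, 1389 and 1217 CPM at Day 10 and fell to 979, 986 and 881 CPM in Day 12 +Fgf (-0.46 ± 0.08 SE, adjusted p = 8.27e-05). In Day 12 +Wnt it rose to 1765, 1901 and 1729 CPM (0.46 ± 0.08, adjusted p = 6.58e-05), relative to the same Day 10 libraries. At Day 15 it held 959, 1003 and 1015 CPM in +Fgf and 2417, 1872 and 2105 CPM in +Wnt, a 2.14-fold difference (adjusted p = 1.59e-09). Fth1, the heavy subunit, moved less, with means of 323 CPM at Day 10, 306 and 397 CPM in +Fgf and 375 and 478 CPM in +Wnt at Day 12 and Day 15. It was 1.20-fold higher in +Wnt than in +Fgf at Day 15 (adjusted p = 0.000273), and it rose from Day 12 to Day 15 in both media. Ferritin genes have processed copies in the mouse genome, so the split of their reads is uncertain. Tfrc and Ftl1 lay in opposite order between +Fgf and +Wnt at both days. Both hold iron-responsive elements, whose part in these mRNA levels was not tested.

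Slc40a1, the iron exporter gene, was low throughout. The libraries held 2.52, 3.14 and 2.45 CPM at Day 10, 1.46, 1.78 and 1.60 CPM in Day 12 +Fgf, and 3.15, 1.18 and 1.99 CPM in Day 12 +Wnt. In Day 15 +Wnt they held 4.47, 5.00 and 5.12 CPM, a rise of 1.18 ± 0.33 (SE) from Day 12 (adjusted p = 0.00466) that was 0.51 and no longer past the threshold after quantile normalization. In Day 15 +Fgf they held 1.77, 5.49 and 1.84 CPM, where replicate 2 was again the high library and overlapped +Wnt. With that library the Day 15 difference, +Fgf minus +Wnt, was -0.81 (adjusted p = 0.0406), and without it -1.29 (adjusted p = 0.000501). Leaving out Day 15 +Fgf replicate 1 or 3, or any Day 15 +Wnt replicate, ended the call, with differences from -0.86 to -0.55. The call also ended after quantile normalization (-0.39), with RNA integrity as a covariate (-0.69), in edgeR on recovered reads (-0.72), with no filter and with moderation without a trend.

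Cp, which encodes the ferroxidase ceruloplasmin, rose with +Fgf and fell with +Wnt. It held 53.8, 85.3 and 81.2 CPM at Day 10. It held 217, 137 and 237 CPM in Day 12 +Fgf and 273, 275 and 249 CPM in Day 15 +Fgf, above every other group. In Day 12 +Wnt it held 22.5, 19.0 and 25.7 CPM, and in Day 15 +Wnt 8.50, 8.28 and 6.10 CPM, below every other group. At Day 12 the change from Day 10 was 1.41 ± 0.19 (SE) in +Fgf (adjusted p = 1.22e-05) and -1.68 ± 0.19 in +Wnt (adjusted p = 1.42e-06), and both share the Day 10 libraries. At Day 15 Cp was 33.9-fold higher in +Fgf (adjusted p = 9.29e-13), the largest difference of a member in that direction. The summed level of 7 endothelium markers, which was chiefly Kdr, was also higher in +Fgf than in +Wnt at both days. It was 37.4 to 61.8 CPM at Day 10, 157, 100.3 and 171 CPM in Day 12 +Fgf and 218.5 to 269.5 CPM in Day 15 +Fgf, against 6.92 to 10.5 CPM in Day 12 +Wnt and 22.8 to 29.2 CPM in Day 15 +Wnt. Kdr led the list in every group, with 248 CPM of the Day 15 +Fgf level, and Emcn was at 0 in Day 12 +Wnt. The part of such cells in the Cp level was not tested. The overlap of the exons of Cp with Hps3 bears on these values, since the strand setting of the counting is not given in the sources used here.

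Heph, the membrane-bound ferroxidase gene, rose in both media by Day 12, from 29.5 ± 2.99 CPM to 58.2 ± 6.73 CPM in +Fgf and 44.7 ± 2.05 CPM in +Wnt (SD, n = 3). It was 1.29-fold higher in +Fgf than in +Wnt at Day 12 (adjusted p = 0.00194) and 1.26-fold higher at Day 15 (adjusted p = 0.00287). With RNA integrity as a covariate the Day 15 difference was 0.09 and no longer past the threshold.

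**Figure D2:**
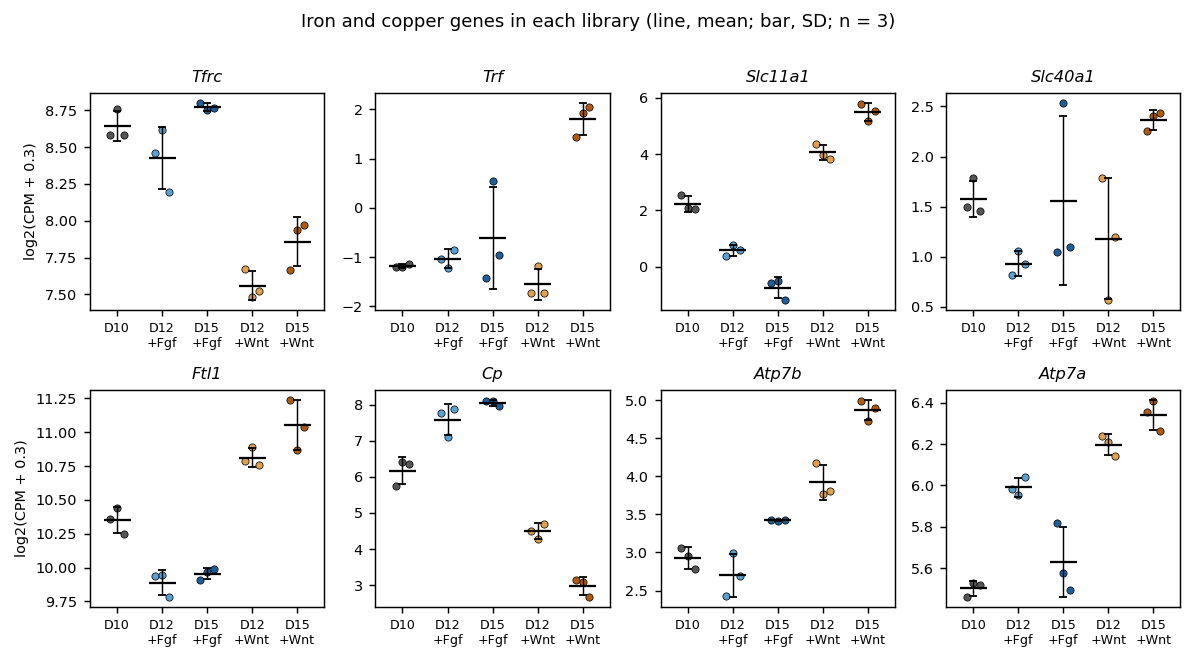
Level of 8 iron and copper genes in each of the 15 libraries on the log2(CPM + 0.3) scale, with a separate vertical range for each gene. Points are libraries, lines are means and bars are SD (n = 3). Tfrc and Cp are lower in the +Wnt groups and Ftl1, Slc11a1 and Atp7b are higher there, and 1 Day 15 +Fgf library is high for Trf (1.17 CPM) and Slc40a1 (5.49 CPM).

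The copper genes were each lower in +Fgf than in +Wnt at both days, although the Day 12 call for Atp7a (-0.21, adjusted p = 0.0198) ended without Day 12 +Fgf or Day 12 +Wnt replicate 1 or 2 (-0.20 to -0.18). Atp7b, a copper pump that loads ceruloplasmin in liver, held 8.04, 7.42 and 6.57 CPM at Day 10. It held 5.07, 7.65 and 6.13 CPM in Day 12 +Fgf and 10.5, 10.4 and 10.5 CPM in Day 15 +Fgf. In +Wnt it held 17.8, 13.4 and 13.7 CPM at Day 12 and 31.5, 26.2 and 29.6 CPM at Day 15, with no overlap between the stimulations at either day. The difference, +Fgf minus +Wnt, was -1.22 ± 0.14 (SE) at Day 12 (adjusted p = 1.70e-06) and -1.45 ± 0.14 at Day 15 (adjusted p = 1.03e-07).

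Atp7a, the copper pump that also delivers copper to tyrosinase in melanosomes, rose from 45.0 ± 1.14 CPM at Day 10 to 63.3 ± 2.01 CPM with +Fgf and 73.1 ± 2.53 CPM with +Wnt at Day 12 (SD, n = 3). By Day 15 it fell to 49.5 ± 5.97 CPM in +Fgf (adjusted p = 0.000291), while it was 80.9 ± 4.02 CPM in +Wnt (adjusted p against Day 12 = 0.0733). Slc31a1, the copper importer gene, rose to 168 ± 6.78 CPM in Day 12 +Wnt from 116 ± 4.06 CPM at Day 10 (adjusted p = 6.37e-08). It was 1.31-fold higher in +Wnt than in +Fgf at Day 12 and 1.43-fold higher at Day 15 (adjusted p = 3.28e-08).

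The metallothionein genes Mt1 and Mt2, whose small proteins bind zinc and copper, fell in both media by Day 12 and then rose chiefly in +Wnt. Mt1 held 91.9, 74.7 and 87.4 CPM at Day 10. At Day 12 it held 13.1, 18.6 and 14.5 CPM in +Fgf, a 5.45-fold fall (adjusted p = 2.29e-09), and 28.0, 25.5 and 20.1 CPM in +Wnt, a 3.44-fold fall (adjusted p = 5.77e-08). At Day 15 it held 25.4, 38.9 and 30.1 CPM in +Fgf and 122, 109 and 130.1 CPM in +Wnt. The rise from Day 12 was 1.01 ± 0.15 (SE) in +Fgf (adjusted p = 2.87e-05) and 2.29 ± 0.15 in +Wnt (adjusted p = 1.37e-09). With RNA integrity as a covariate the rise in +Fgf was 0.87 and no longer past the threshold. Without Day 15 +Fgf replicate 2 that rise was 0.85 and still past the threshold.

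Mt2 held 68.3, 57.8 and 71.8 CPM at Day 10. It fell to 7.92, 11.9 and 6.01 CPM in Day 12 +Fgf and to 13.3, 10.6 and 6.29 CPM in Day 12 +Wnt, and these groups overlapped. In Day 15 +Wnt it held 31.9, 35.4 and 45.3 CPM, a rise of 1.91 ± 0.34 (SE, adjusted p = 9.01e-05), whereas in Day 15 +Fgf it held 5.97, 18.5 and 16.0 CPM, a difference of 0.53 from Day 12 (adjusted p = 0.190). Without Day 15 +Fgf replicate 1, the low library, that difference was 1.03 and past the threshold (adjusted p = 0.00385). Every Day 15 +Wnt library of Mt1 and Mt2 was above every +Fgf library. At Day 15 the log2 difference, +Fgf minus +Wnt, was -1.94 for Mt1 (adjusted p = 7.71e-09) and -1.59 for Mt2 (adjusted p = 0.000516), and with RNA integrity as a covariate that of Mt2 was -0.98 and past no threshold.

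Zinc exporters of the Slc30a family comprised a few genes with large differences and more with small ones. Slc30a10, which carries manganese as well as zinc out of cells, rose at each step in both media. It held 0.613, 0.267 and 0.535 CPM at Day 10, 3.30, 1.34 and 3.32 CPM in Day 12 +Fgf and 19.0, 23.3 and 20.6 CPM in Day 15 +Fgf. In +Wnt it held 1.89, 1.18 and 1.39 CPM at Day 12 and 7.32, 5.59 and 8.77 CPM at Day 15. From Day 12 to Day 15 it rose by 2.93 ± 0.28 (SE) on the log2 scale in +Fgf (adjusted p = 1.76e-07) and by 2.07 ± 0.28 in +Wnt (adjusted p = 5.16e-06), and at Day 15 it was 2.86-fold higher in +Fgf (adjusted p = 0.000135).

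Slc30a2, a transporter gene of vesicular zinc, was highest at Day 10, with 4.22, 5.28 and 5.20 CPM. It held 1.01, 0.892 and 0.128 CPM in Day 12 +Fgf and 0.147, 0.343 and 0.283 CPM in Day 15 +Fgf (2, 5 and 4 reads). In +Wnt it held 2.20, 2.71 and 2.38 CPM at Day 12 and 2.05, 2.54 and 2.67 CPM at Day 15, above every +Fgf library. It was 3.11-fold lower in +Fgf than in +Wnt at Day 12 (adjusted p = 0.000405) and 4.90-fold lower at Day 15 (adjusted p = 7.41e-06), and the Day 15 difference of -2.29 was -1.38 and not past the threshold with RNA integrity as a covariate.

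Slc30a3, known from zinc-rich synaptic vesicles, was low but moved through a minimum at Day 12 in both media. It held 0.477, 0.735 and 0.993 CPM at Day 10, 0.127, 0.127 and 0.256 CPM in Day 12 +Fgf (2, 2 and 4 reads), and 0.315, 0.139 and 0.199 CPM in Day 12 +Wnt. At Day 15 it held 1.55, 1.37 and 1.70 CPM in +Fgf and 1.18, 0.671 and 0.912 CPM in +Wnt. It passed the filter through Day 15 libraries alone, the 3 of +Fgf and 1 of +Wnt, so a rise to Day 15 was built into its being tested. The rise from Day 12 was 1.98 ± 0.26 (SE) in +Fgf (adjusted p = 5.97e-06) and 1.23 ± 0.26 in +Wnt (adjusted p = 0.000441), the latter 0.51 and no longer past the threshold after quantile normalization. The summed level of ganglion cell and early neuron markers was also higher at Day 15, from 332 to 360.4 CPM in Day 12 +Fgf to 1864 to 2017 CPM in Day 15 +Fgf, and from 604 to 831 CPM to 1322 to 1630 CPM in +Wnt, and its part in this result was not tested.

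The other tested exporters stayed within a narrow range. The means of Slc30a1, Slc30a4, Slc30a5, Slc30a6, Slc30a7 and Slc30a9 over the groups differed by 1.12-fold to 1.62-fold between their highest and lowest group. Slc30a1, the plasma membrane exporter gene and a known Mtf1 target, was highest at Day 10 (41.9 ± 0.374 CPM) and fell to 34.6 ± 3.11 CPM in Day 12 +Fgf (adjusted p = 0.00317) and 28.4 ± 0.548 CPM in Day 12 +Wnt (adjusted p = 4.59e-06; SD, n = 3), the former not past the threshold with RNA integrity as a covariate (-0.26, adjusted p = 0.0600). Unlike those of Mt1 and Mt2, its Day 15 +Wnt level, 28.3 ± 1.50 CPM, did not differ past the threshold from that of Day 12 (SE of the log2 difference 0.07, adjusted p = 0.962). Slc30a4, which loads zinc into endosomes, fell from Day 12 to Day 15 in +Fgf by 0.46 (adjusted p = 1.00e-05), and Slc30a9, which encodes a mitochondrial zinc exporter, rose by 0.33 there (adjusted p = 1.26e-05).

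Among the importers, Slc39a12, a brain-rich zinc importer gene, changed most. It held 0.886, 0.669 and 1.38 CPM at Day 10, 0.0634, 0.446 and 0.128 CPM in Day 12 +Fgf (1, 7 and 2 reads), and 0.737, 1.51 and 1.70 CPM in Day 15 +Fgf. In +Wnt it held 1.82, 1.88 and 2.25 CPM at Day 12 and 8.93, 11.0 and 8.28 CPM at Day 15. At each day every +Wnt library was above every +Fgf library, and at Day 15 the difference, +Fgf minus +Wnt, was -2.63 ± 0.30 (SE, adjusted p = 6.00e-07). It rose from Day 12 to Day 15 in both media, by 1.67 in +Fgf (adjusted p = 0.000140) and by 2.08 in +Wnt (adjusted p = 9.14e-06).

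Slc39a8, which brings in zinc, manganese and iron, held 11.6, 10.6 and 10.5 CPM at Day 10, 7.48, 7.14 and 6.20 CPM in Day 12 +Fgf, and 15.9, 14.5 and 15.9 CPM in Day 12 +Wnt. In Day 15 +Wnt it held 14.3, 12.2 and 14.6 CPM. In Day 15 +Fgf it held 3.32, 8.24 and 4.38 CPM, with replicate 2 high, and no +Fgf library reached a +Wnt library at either day. The Day 15 difference, +Fgf minus +Wnt, was -1.41 (adjusted p = 1.55e-05) and -1.76 without that replicate. The difference between Day 15 and Day 12 in +Fgf was -0.46 with it (adjusted p = 0.0723) and -0.81 without it (adjusted p = 0.000137), so the call depended on that library, as did that of the interaction described further on (-0.29 with it, -0.64 without it).

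Slc39a10, a plasma membrane zinc importer gene, was among the most exactly measured members. Its means were 137 ± 2.74 CPM at Day 10, 234 ± 1.46 and 203 ± 3.98 CPM in Day 12 and Day 15 +Fgf, and 159.9 ± 0.625 and 115 ± 4.76 CPM in Day 12 and Day 15 +Wnt (SD, n = 3). It was 1.46-fold higher in +Fgf at Day 12 (adjusted p = 3.22e-09) and 1.76-fold higher at Day 15 (adjusted p = 9.49e-12), and it was the 1 Slc39a gene of 11 tested that was higher in +Fgf at either day, against 26.3% of all genes at Day 12 and 38% at Day 15. At Day 15, 6 of the 11 were lower in +Fgf, against 30.6% of all genes.

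The remaining importers showed smaller differences. Slc39a1 and Slc39a13 rose in both media by Day 12, by 0.34 to 0.38 on the log2 scale, although both calls for Slc39a13 ended after quantile normalization (0.24 in +Fgf and 0.19 in +Wnt). Slc39a14, which also carries iron, fell in both (adjusted p = 0.0130 in +Fgf and 0.00262 in +Wnt). The call for Slc39a14 in +Fgf ended without Day 10 replicate 2 or Day 12 +Fgf replicate 2 (-0.25 to -0.23) and with RNA integrity as a covariate. Slc39a3 rose at every step, from 14.2 CPM at Day 10 to 29.0 CPM (+Fgf) or 29.4 CPM (+Wnt) at Day 15, levels that did not differ past the threshold (adjusted p = 0.844). Slc39a11 rose from Day 12 to Day 15 in both media, by 0.55 in +Fgf and 0.48 in +Wnt. Slc39a7 held 153 to 174 CPM in every group mean, and the highest and lowest group means differed 1.23-fold for Slc39a6 and 1.17-fold for Slc39a9.

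**Figure D3:**
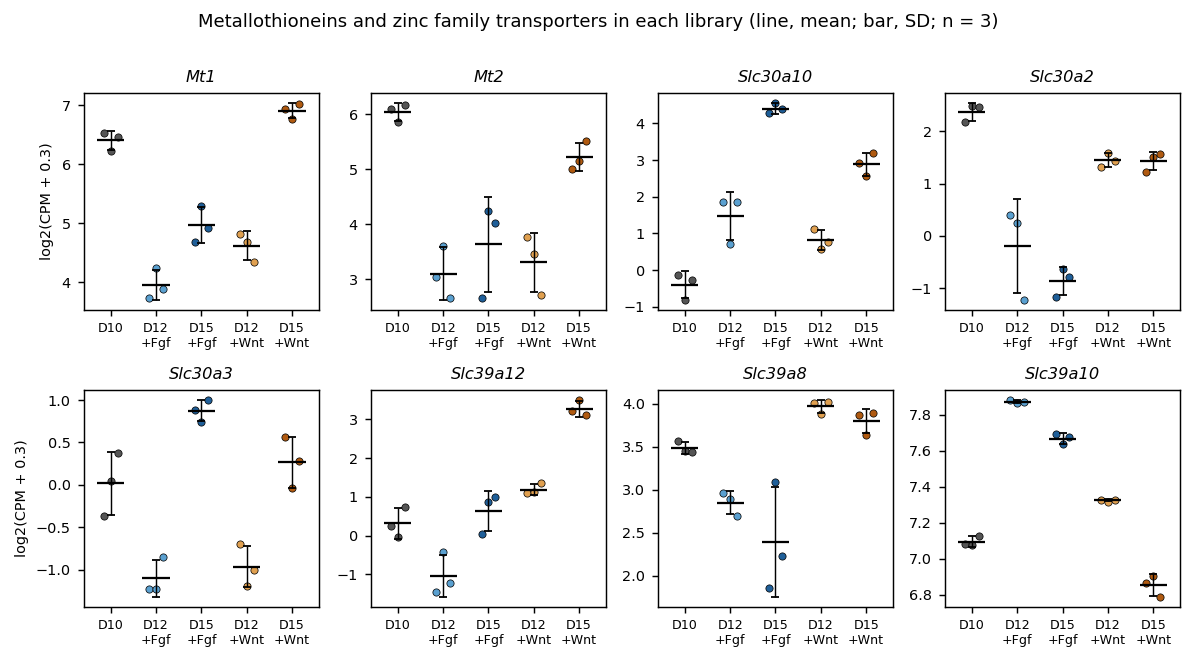
Level of Mt1, Mt2 and 6 zinc family transporter genes in each of the 15 libraries on the log2(CPM + 0.3) scale, with a separate vertical range for each gene. Points are libraries, lines are means and bars are SD (n = 3). Mt1 and Mt2 drop from Day 10 to Day 12 in both media and are high again in Day 15 +Wnt, Slc30a10 climbs in both media, and Slc39a12 is highest in Day 15 +Wnt, at 8.28 to 11.0 CPM.

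By Day 12, 25 of 34 members had changed from Day 10 in +Fgf (11 higher, 14 lower, against 55.7% of all genes tested) and 23 in +Wnt (14 higher, 9 lower, against 60.2% of all genes tested). The share of all genes called lower was 27.8% in +Fgf and 29.6% in +Wnt, and called higher 27.9% and 30.6%. These comparisons share the Day 10 libraries. A change of at least 1 was called for 8 and 6 members, against 9.34% and 10.5% of all genes, and replicates did not overlap for 25 members in each, against 61% and 64.3%. From Day 12 to Day 15, 20 of 34 changed in +Fgf (12 higher, 8 lower, against 57.1% of all genes tested), and 18 without Day 15 +Fgf replicate 2. In +Wnt, 21 changed (17 higher, 4 lower, against 68% of all genes tested), and the share of all genes called higher was 32.5% and lower 35.5%, while in +Fgf these shares were 27.2% and 29.9%. A change of at least 1 was called for 5 members in +Fgf and 9 in +Wnt, against 12.3% and 16.7% of all genes, and replicates did not overlap for 19 and 25 members, against 63.7% and 72.8%. All 9 tested iron genes were among the 21 members changed in +Wnt, 7 higher and 2 lower (Cp and Slc11a2). Trf was among the 9 only because of its Day 15 level, and the calls ended for Ftl1 without Day 15 +Wnt replicate 1 (0.14) and for Heph without Day 12 +Wnt replicate 3 (0.22).

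Whether the change from Day 12 to Day 15 differed between the media was tested as an interaction. It was past the threshold for 11 of 34 members, against 47.9% of all genes tested (3 higher and 8 lower, against 27% and 20.9%), with 5 members at or past 1 on the log2 scale, against 14.2%, and for 14 without Day 15 +Fgf replicate 2. Changes in opposite directions, each past the threshold, were found for Slc11a1 and Cp. Slc11a1 fell by 1.34 in +Fgf and rose by 1.44 in +Wnt. Cp rose by 0.47 in +Fgf and fell by 1.52 in +Wnt, but its rise lost the call in 12 of 24 alternatives. Mt1 rose more in +Wnt. Trf and Mt2 rose past the threshold in +Wnt and not in +Fgf, where Mt2 passed it without Day 15 +Fgf replicate 1. The difference for Trf was partly built into its being tested, since it passed the filter chiefly through Day 15 +Wnt. For Mt2 the call ended without Day 12 +Fgf replicate 2, Day 12 +Wnt replicate 3, Day 15 +Fgf replicate 1 or Day 15 +Wnt replicate 3, with values from -1.24 to -0.89. Slc40a1, not called with all libraries (-0.56), was called without Day 15 +Fgf replicate 2 (-1.04, adjusted p = 0.0265). Slc30a10, Slc39a12, Slc30a3 and Atp7b rose in both media with differences of change from -0.41 to 0.86 that did not pass the threshold (adjusted p from 0.0821 to 0.441). That of Slc30a10 passed it with the replicate block, with a pseudocount of 1, after quantile normalization (1.21) and without Day 12 +Fgf replicate 1 or 3. That of Slc39a12 passed it with a pseudocount of 1, and that of Slc30a3 after quantile normalization and with moderation without a trend. The rise of Atp7b in +Fgf was 0.62 and no longer past the threshold with RNA integrity as a covariate (adjusted p = 0.133).

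**Figure D4:**
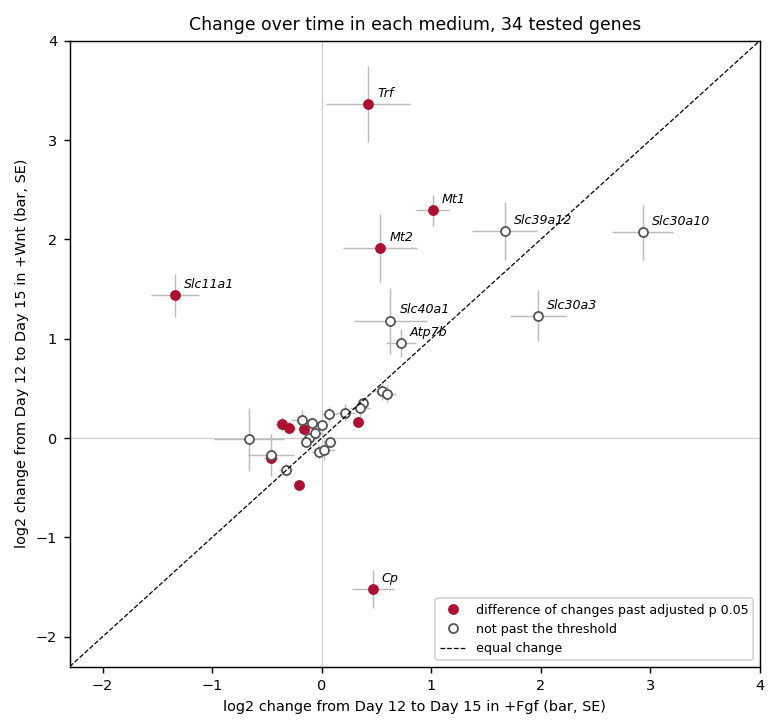
Log2 change from Day 12 to Day 15 in +Fgf (horizontal) and in +Wnt (vertical) for the 34 tested members, bars are SE (n = 3 per group), and the dashed line marks equal change. Red points, past an adjusted p of 0.05 for the difference of the changes, include Trf, Mt1, Mt2 and Slc11a1 above the line and Cp below it, whereas Slc30a10 at 2.93 and 2.07 and Slc39a12 at 1.67 and 2.08 are open points.

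Of the members that did not pass the filter, Slc39a4 and Slc39a5, zinc importers of gut epithelium and pancreas, were highest in the library with liver and visceral endoderm markers. Slc39a5 held 17 reads in Day 15 +Fgf replicate 2 (1.17 CPM) and 1 and 0 reads in the other replicates of that group. It held 0, 1 and 1 reads at Day 10, 0 in each Day 12 +Fgf library, 0, 1 and 0 in Day 12 +Wnt, and 1, 1 and 4 in Day 15 +Wnt. Slc39a4 held 27 reads there (1.85 CPM) against 1 and 0 reads, and its next highest library was Day 12 +Wnt replicate 1, with 23 reads (1.45 CPM) against 4 and 3. These libraries held the highest sums of the marker list, and the part of those cells in the values was not tested. Slc39a2 held 0.210 to 1.06 CPM in all libraries, and Slc30a8, known from pancreatic islets, held 0 to 2 reads.

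**Figure D5:**
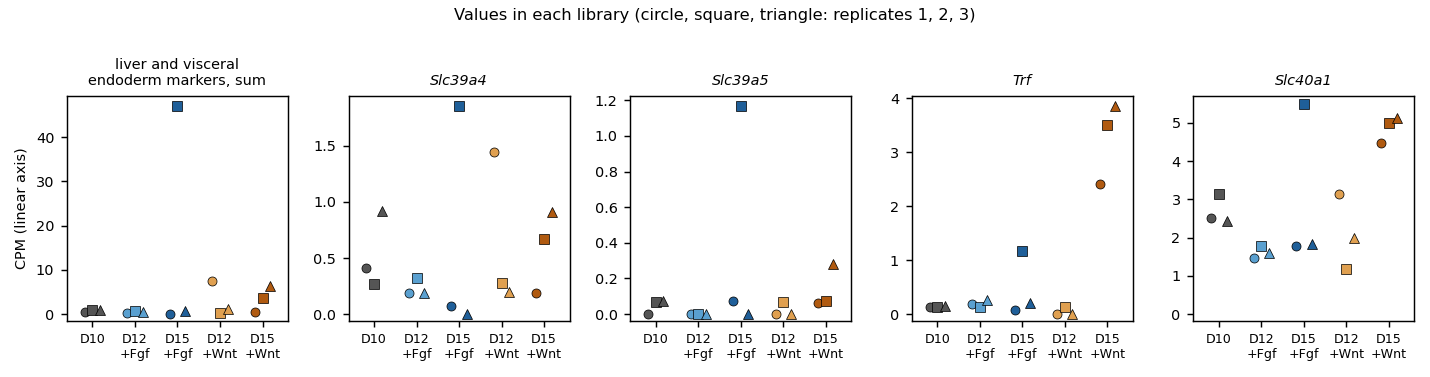
Summed level of liver and visceral endoderm markers and the levels of Slc39a4, Slc39a5, Trf and Slc40a1 in each of the 15 libraries, in CPM on linear axes, with circles, squares and triangles for replicates 1, 2 and 3. Day 15 +Fgf replicate 2 is the highest library of the marker sum at 47.1 CPM and of Slc39a4, Slc39a5 and Slc40a1 at 1.85, 1.17 and 5.49 CPM.

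Other genes of metal handling were taken from a list of 64 symbols, of which 60 were in the table and 47 were tested. At Day 15, 38 of the 47 differed between the media (80.9%, against 68.7% of all genes), 15 higher and 23 lower in +Fgf, with a median difference of -0.22 on the log2 scale, against 0.05 over all genes. At Day 12, 26 differed (55.3%, against 51.5%), 14 of them higher in +Fgf. From Day 12 to Day 15, 29 changed in +Fgf (61.7%, against 57.1%), 10 higher and 19 lower, and 32 in +Wnt (68.1%, against 68%), 17 higher and 15 lower. Against Day 10, 29 changed in Day 12 +Fgf (61.7%, against 55.7%), 13 of them higher, and 27 in Day 12 +Wnt (57.4%, against 60.2%), 15 of them higher. The interaction was past the threshold for 28 of the 47 (59.6%, against 47.9%), 10 higher and 18 lower. Apart from the Day 15 difference between the media and the interaction, these shares lay near those of all genes.

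Copper enzymes gave the largest differences of that list. Tyrosinase (Tyr), which starts melanin synthesis, held 667, 542 and 614 CPM in Day 15 +Wnt and 23.3, 28.7 and 30.5 CPM in Day 15 +Fgf, a log2 difference of -4.45 in +Fgf (adjusted p = 2.10e-12). Lox, a collagen crosslinking enzyme, rose from 0.943 ± 0.316 to 20.6 ± 3.31 CPM between Day 12 and Day 15 in +Wnt (SD, n = 3), and by 2.26 on the log2 scale in +Fgf (adjusted p = 3.66e-07). Its relatives Loxl1 and Loxl2 rose from Day 10 to Day 12 in +Fgf by 1.38 and 1.23. Moxd1 was 1.47 higher in +Fgf than in +Wnt at Day 15 on that scale (adjusted p = 3.10e-07).

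Among the iron genes of the list, the ferrireductase gene Steap3, whose enzyme acts in transferrin endosomes, held 9.31, 5.67 and 8.7 CPM in Day 15 +Wnt and 0.590, 1.17 and 0.777 CPM in Day 15 +Fgf (log2 difference -2.84 in +Fgf, adjusted p = 1.63e-08). Its relatives Steap1 and Steap2 fell from Day 12 to Day 15 in +Wnt by 1.45 and 1.20, and Steap1 fell in +Fgf by 1.29. Steap4 was 1.62 higher in +Fgf than in +Wnt at Day 12 (adjusted p = 5.96e-05), at levels of 0.828 to 1.60 CPM and 0.132 to 0.189 CPM. Bmp6, a signal that induces hepcidin in liver, fell by 1.30 from Day 10 to Day 12 in +Fgf (adjusted p = 0.000186).

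Among the zinc genes of the list, the third metallothionein gene Mt3, best known from brain, rose with Mt1 and Mt2 in +Wnt, from 0.614 ± 0.426 CPM at Day 12 to 5.18 ± 0.205 CPM at Day 15 (SD, n = 3; adjusted p = 4.92e-06). Mtf1, the zinc-sensing factor, differed by at most 0.30 on the log2 scale between compared groups. Tmem163, a vesicular zinc transporter gene outside both families, rose 1.64 from Day 10 to Day 12 in +Wnt (adjusted p = 2.88e-05) and differed by -2.27 at Day 12, +Fgf minus +Wnt (adjusted p = 9.36e-07). The zinc enzyme carbonic anhydrase 2 (Car2) was 1.27 higher in +Fgf at Day 15 (adjusted p = 2.27e-06), and fell by 1.14 from Day 10 to Day 12 in +Wnt. Its Day 15 +Fgf libraries held 42.5, 64.5 and 42.0 CPM, with replicate 2 the highest.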

How the data were processed

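Strand-specific mRNA libraries were sequenced from the 15 samples. Per the labels and the study's methods, the authors aligned reads to mm10 with TopHat2 2.0.8b, built genes with Cufflinks 2.1.1 and normalized counts with edgeR 3.2.4. The deposited values are called CPM by the authors, but the columns' sums differ from those of true CPM, so they are a scaled signal. Dividing by the value of 1 read gave whole counts for 100% of values (tolerance 0.01).

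A gene was tested if 3 or more libraries held it at 1 CPM or above, relative to the column total. The test was made with limma 3.58.1 (R 4.3.3) on log2(value + 0.3), with 1 mean per group, trended moderation and Benjamini-Hochberg adjustment over 13845 entries. The threshold was an adjusted p of 0.05. Fold changes are on that scale and understate those of low genes. Alternatives included edgeR 4.0.16 on recovered reads, other scalings, pseudocounts and filters, RNA integrity from the study's methods, a replicate block and leaving out each library. The same steps were tested on simulated data. Summaries used Python 3.11.15, pandas 2.3.3, NumPy 2.4.6 and SciPy 1.17.1, and plots matplotlib 3.10.9. Replicates of a group differed by more than sampling noise. Counting intervals cover counting error only. The counting's strand setting is not given in the sources used here.

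The members and lists were chosen with earlier results of these data known. Every member is named, with its value in every library where it was called in some comparison with a log2 difference of 1 or more or held at most 3 reads in every library of some group and more in another, and otherwise by means, ranges and counts. In the further list the 2 largest called rises and falls per comparison were eligible, and Mtf1 was added after its values were seen.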

Additional observations from a re-analysis of the deposited data

Results flagged for a closer look

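For 11 members the change from Day 12 to Day 15 differed between the media by the interaction test of limma (adjusted p under the threshold of 0.05), given here as the log2 change in +Fgf minus that in +Wnt with its SE. Among the iron genes, the value was -2.94 ± 0.55 for Trf (adjusted p = 0.000327), -2.77 ± 0.31 for Slc11a1 (adjusted p = 1.74e-06) and 1.99 ± 0.27 for Cp (adjusted p = 1.56e-05). Without Day 15 +Fgf replicate 2 that of Trf was -3.52. Trf passed the filter only through Day 15 libraries, chiefly those of +Wnt, so a larger rise in +Wnt was built into its being tested. Its value ran from -4.85 to -1.76 over the 24 alternatives. For the metallothionein genes it was -1.28 ± 0.22 for Mt1 (adjusted p = 0.000133) and -1.38 ± 0.48 for Mt2 (adjusted p = 0.0254). The copper pump gene Atp7a gave -0.51 ± 0.10 (adjusted p = 0.000451), with a fall of 0.36 in +Fgf and a difference of 0.14 in +Wnt that was not past the threshold.

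The zinc transporter genes gave smaller values. They were -0.40 for Slc30a7 (adjusted p = 0.00171), -0.26 for Slc30a4 (adjusted p = 0.0228), 0.18 for Slc30a9 (adjusted p = 0.0353), -0.25 for Slc39a6 (adjusted p = 0.0146) and 0.27 for Slc39a10 (adjusted p = 0.000615). Slc39a10 fell in both media, by 0.20 in +Fgf and by 0.47 in +Wnt. The call for Slc30a9 ended in 8 of the 15 fits that left out a library (0.15 to 0.18), and that for Slc30a4 without Day 12 +Fgf replicate 3 or Day 15 +Wnt replicate 1 (-0.22 in both). With RNA integrity as a covariate the calls for Mt2, Slc30a7, Slc30a9, Slc39a6 and Slc39a10 ended, at -0.69, -0.34, 0.14, -0.16 and 0.24.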

How the results depend on the processing

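Over 24 alternatives, 148 calls of members gave 3552 checks, of which 3398 kept direction and side of the threshold, 153 lost the call and 1 changed sign. RNA integrity as a covariate accounted for 32 of the lost calls, quantile normalization for 11 and edgeR on recovered reads for 5. With RNA integrity, the members changed from Day 12 to Day 15 in +Fgf numbered 13 instead of 20, those of the interaction 7 instead of 11, and Heph from Day 12 to Day 15 in +Fgf turned from 0.22 to -0.0552 (adjusted p = 0.844). Over all genes tested the same covariate took these counts from 7899 to 3591 and from 6636 to 3842. Every Day 15 +Fgf library had lower RNA integrity than any Day 12 +Fgf or Day 15 +Wnt library. Every Day 10 library likewise had lower RNA integrity than any Day 12 library. Group and RNA integrity therefore cannot be fully told apart in comparisons that use Day 15 +Fgf or Day 10. With the covariate, the members changed from Day 10 numbered 18 instead of 25 in Day 12 +Fgf and 21 instead of 23 in Day 12 +Wnt. Over all genes tested these counts went from 7716 to 5608 and from 8330 to 6941. The cause of the lost calls was not tested.

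Leaving out 1 library gave 21 to 26 members for Day 12 +Fgf against Day 10, 22 to 24 for Day 12 +Wnt against Day 10, 18 to 21 for the later change in +Fgf, 20 to 22 for that in +Wnt, 18 to 21 and 25 to 28 between the media at Day 12 and Day 15, and 9 to 14 for the interaction. In these fits 85 of 2220 checks lost the call. For a comparison of a pair of groups, most of them left out a library of another group. Such a fit keeps the difference and changes only the estimate of the spread, so a kept call there was a weak check. The 3552 checks given above include these fits. The Day 15 differences of Slc30a1 and Slc30a3 between the media (0.16 and 0.61) lost it in 10 and 8 of them, and the later changes of Cp and Heph in +Fgf (0.47 and 0.22) in 7 and 8.

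Replicate numbers did not pair the samples: 7 of 30 same-numbered pairs had a correlation of deviations over 0.1, against 14 of 60 other pairs, and 6 of 15 samples correlated best with their own number. With the replicate block 3 calls were lost, those of Slc39a11 for Day 12 +Fgf against Day 10 (-0.23, adjusted p = 0.0538) and of Cp and Heph for the later change in +Fgf (0.47 and 0.22, adjusted p = 0.0597 and 0.0516).

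Depth limits the low members: Trf, Slc11a1, Slc30a2, Slc30a3, Slc30a10 and Slc39a12 rest on fewer than 10 reads per library in at least 1 group. With 3 libraries per group, differences that missed the threshold were not shown to be absent.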
